A study of Mus musculus with 4 samples.

Results

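Stromal-type macrophages of the mouse pancreatic islet were taken here as the 202 cell barcodes, of 26121 that passed the quality filters, that held RNA of macrophages together with RNA of genes typical of macrophages in connective tissue and around vessels. A barcode was a member when it met 3 conditions. At least 3 of the 7 macrophage genes C1qa, C1qb, C1qc, Csf1r, Adgre1, Cd68 and Ms4a7 had a UMI (a unique molecular identifier, which counts 1 captured RNA molecule), the hormone genes Ins1, Ins2, Gcg, Sst and Ppy made up less than 25% of UMIs, and Mrc1, Cd163, Folr2 and Stab1 together had 2 or more UMIs. Barcodes with fewer than 1000 UMIs, fewer than 500 genes or over 15% mitochondrial UMIs had been dropped. A further 292 barcodes met the macrophage conditions with fewer than 2 UMIs of the 4 stromal genes and are called other macrophages below. These counts chose the members, so levels of the genes in the rule are given as a description.

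The 4 libraries came from female mice on a C57b6/J background, all of them treated with diphtheria toxin as newborns in 4 injections given 48 hours apart from postnatal day 2, and weaned at 21 days. CCR2-DTR+/- mice carry the receptor for the toxin in cells that use the promoter of Ccr2, a chemokine receptor of monocytes, and their wild type (WT) littermates, which the labels call CCR2-DTR-/-, lack it. Each genotype was taken at 1 and at 6 months of age, and each of these 4 groups has 1 library, made on the 10x Chromium platform from 300 islets pooled from 2 to 3 mice. The series asks what the loss of CCR2+ myeloid cells around birth leaves behind in the islet's cell populations. With 1 library per group no difference between genotypes or ages could be tested, and the 95% intervals of shares and ratios cover counting error only.

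Tissue macrophages descend partly from cells seeded before or around birth, which maintain themselves, and partly from blood monocytes, which leave the marrow and enter tissues through CCR2. In the pancreas, macrophages inside the islet carry CD11c (Itgax) and much MHC class II, the molecules that present antigen to CD4 T cells. Macrophages of the stroma and of vessel walls are known by endocytic receptors: the mannose receptor CD206 (Mrc1), the haemoglobin scavenger receptor CD163, the folate receptor beta (Folr2) and stabilin 1 (Stab1), a scavenger receptor that endothelial cells also make, often with the hyaluronan receptor Lyve1.

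On the GRCm38 assembly, which corresponds to the mm10 build of the files, Mrc1 lies on chromosome 2 (14229392 to 14332057, plus strand) and Cd163 on chromosome 6 (124304656 to 124330527, plus strand). Folr2 lies on chromosome 7 (101839988 to 101857194, minus strand), as does Lyve1 (110850607 to 110863239, minus strand), and Stab1 on chromosome 14 (31139013 to 31168641, minus strand).

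The files list 35079 barcodes, of which 9099, 8910, 3720 and 4392 passed the filters. Values given as sets of 4 follow this order throughout: first WT aged 1 month, then CCR2-DTR aged 1 month, WT aged 6 months, and last CCR2-DTR aged 6 months. Members had a median of 4993, 5002, 8671 and 8484 UMIs and other macrophages one of 4375, 5259, 6698 and 6662, so the 6-month libraries were deeper per cell. Summed over members, 303912, 400099, 416922 and 542715 UMIs were available. Pairs of libraries shared between 6 and 34 barcode sequences, none of them a member or another macrophage in both. No doublets were removed. A Scrublet doublet score over 0.25 was found in 2, 3, 1 and 2 members. At least 2 markers of 1 other class (T cell, B cell, endothelial or mesenchymal) had a UMI in 8, 6, 9 and 13 members.

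Of the genes in the rule, Cd163 and Folr2 were present in a minority of members. Stab1, the commonest of the 4 genes, had a UMI in 37 of 39, 54 of 64, 40 of 44 and 51 of 55 members, and Mrc1 in 26, 43, 23 and 30 of them. Cd163 had a UMI in 9, 16, 3 and 6 members, and Folr2 in 13, 20, 2 and 6. Of all 202 members, 78 had Stab1 as their only stromal gene, 15 had Mrc1 alone, and 25 had UMIs of all 4 genes. Stab1 is shared with vessels: it had a UMI in 23.5%, 26.6%, 42.2% and 35.4% of endothelial-type barcodes, at median depths of 3219, 4039, 5845 and 5654.5 UMIs. In the same endothelial-type barcodes Mrc1 had a UMI in at most 0.311%, Cd163 in 0 of 664, 696, 322 and 376 (which at these depths allows up to 0.452%, 0.431%, 0.932% and 0.798% of barcodes with a UMI of it, a limit on detection and not on expression), and Folr2 in 1 barcode of CCR2-DTR at 1 month.

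The threshold cut through a graded series of counts. Of 494 macrophages, 187 had no stromal UMI, 105 had 1, 72 had exactly 2, 34 had 3, and 72 had 5 or more. Just inside it, the 20 macrophages of WT at 6 months with 2 stromal UMIs held 10 UMIs of Mrc1, 30 of Stab1, 45 of Itgax, and none of Cd163, Folr2 or Lyve1. Just outside it, the 14 with 1 stromal UMI held 3 of Mrc1, 11 of Stab1 and 17 of Itgax. In all 4 libraries together, the members with exactly 2 stromal UMIs held 1 UMI of Folr2 and none of Cd163 or Lyve1. RNA of Cd163 and Lyve1 was thus absent from the members nearest the threshold, and the members are called here by the rule that chose them.

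A smaller set within the members carried the classical profile. It was defined after the values were seen, as macrophages with at least 1 UMI of Cd163 or Folr2, and so is described without a test. It numbered 14, 24, 3 and 8 cells, 49 of the 202 members. In WT at 6 months 1 of the 3 cells held 26145 of their 36574 UMIs, so levels given for that set rest mostly on 1 barcode. Nearly all RNA of Lyve1 lay in it: 70 of 70 UMIs in WT at 1 month, 126 of 127 in CCR2-DTR at 1 month, 13 of 13 in WT at 6 months and 33 of 33 in CCR2-DTR at 6 months.

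F13a1, Cbr2 and Pf4, other genes of resident macrophages, followed the same division. Levels are given as CPM, the UMIs of a gene scaled to a common total of UMIs for each group of cells in a library. F13a1, which encodes the A subunit of coagulation factor XIII, was at 1329, 1623, 1039 and 872 CPM in members with Cd163 or Folr2. It was at 0, 43.4, 7.89 and 11.1 CPM in the remaining members. Cbr2, a carbonyl reductase, was at 788, 906, 246 and 375 CPM in the first and at most 8.23 CPM in the second. The chemokine gene Pf4 was at 2708, 2958, 1449 and 1137 CPM against 49.4, 80.1, 13.1 and 28.8 CPM. Every library shows these 3 genes far higher in the members with Cd163 or Folr2, whatever its genotype or age. The remaining members lay close to other macrophages for them: F13a1 was at 4.06, 15.9, 34.6 and 6.08 CPM in the latter. Not all genes of resident macrophages followed the division in every library. In CCR2-DTR at 6 months Timd4 had 4 UMIs in members with Cd163 or Folr2 and 37 in the remaining members. Ccl8 had 43 and 171 UMIs there. Most UMIs of each gene in that library lay in a single cell. In the other libraries nearly all UMIs of both genes lay in members with Cd163 or Folr2.

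Genes listed for intra-islet macrophages were divided: Itgax, Cd72, Cxcl16 and Mmp12 were lower in members with Cd163 or Folr2 in each library, while Lyz2 and Cd83 were higher. Itgax had 3, 0, 0 and 2 UMIs in members with Cd163 or Folr2, and 28, 25, 81 and 74 UMIs in the remaining members, where its level (115, 83.4, 213 and 164 CPM) was near that in other macrophages (140, 163, 131 and 185 CPM). H2-Aa, which encodes the alpha chain of an MHC class II molecule, was at 1329, 1932, 3008 and 3642 CPM in members with Cd163 or Folr2, at 5103, 6680, 16790 and 13895 CPM in the remaining members, and at 8790, 7863, 15336 and 13731 CPM in other macrophages. Mmp12 had 0, 0, 0 and 2 UMIs in members with either gene against 112, 84, 85 and 48 in the rest. Lyz2, lysozyme, was 3.51, 2.10, 1.41 and 2.55 times as high in members with either gene as in the remaining members. For Cd83, a maturation marker of antigen-presenting cells, the ratio was 5.98, 2.65, 1.69 and 1.36, and its interval left out 1 in WT at 1 month (1.90 to 20.4) but in no other library. At 1 month 4 of the 14 and 6 of the 24 cells with Cd163 or Folr2 had any H2-Aa UMI. At 6 months all 3 and 7 of 8 did, at a greater depth of 5688 and 9390.5 UMIs per cell (median) against 3565 and 4189.5. C1qa, part of the rule, was higher in members with either gene at 1 month (4628 against 3848 CPM in WT, 5926 against 3824 CPM in CCR2-DTR) and lower in them at 6 months (1668 against 5979 CPM in WT, 3918 against 5755 CPM in CCR2-DTR). The WT value of 1668 CPM comes mostly from 1 cell.

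**Figure D1:**
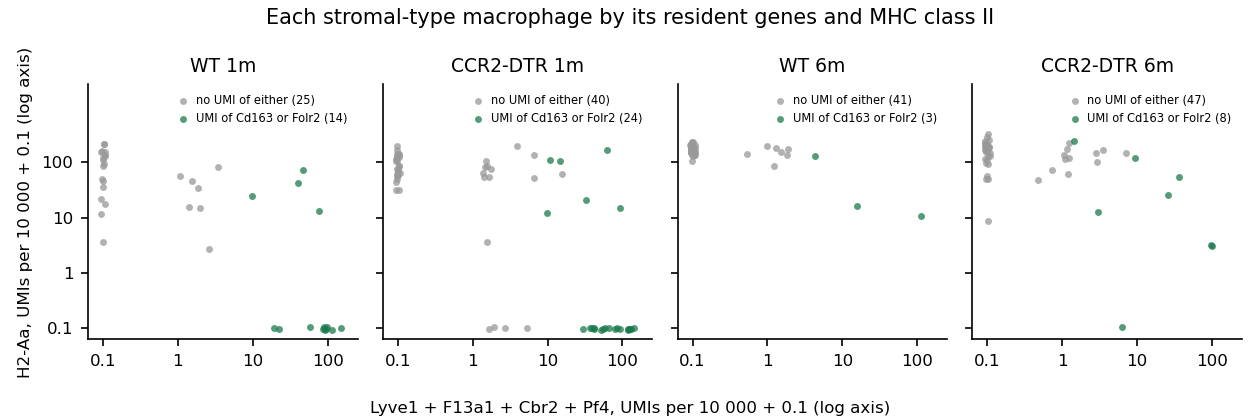
Each point is 1 stromal-type macrophage, placed by its UMIs of Lyve1, F13a1, Cbr2 and Pf4 together (horizontal) and of H2-Aa (vertical), both per 10 000 UMIs plus 0.1 on log axes with a small random shift, in 1 panel per library. Green points, the 14, 24, 3 and 8 members with a UMI of Cd163 or Folr2, lie to the right and mostly low at 1 month, and grey points, the other members, lie mostly to the left and high.

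The share of macrophages in this smaller set was 10.3% (interval 5.74 to 16.7), 18.0% (11.9 to 25.6), 3.45% (0.717 to 9.75) and 5.80% (2.54 to 11.1). The ratio of this share at 6 months to that at 1 month was 0.321 (0.125 to 0.739) in CCR2-DTR and 0.335 (0.0617 to 1.20) in WT, where the interval includes 1. Over all filtered barcodes the age ratio was 0.676 (0.263 to 1.56) in CCR2-DTR and 0.524 (0.0966 to 1.88) in WT, and both intervals include 1. Macrophages as a whole were a larger share of barcodes at 6 months, by 2.10 (1.65 to 2.69) in CCR2-DTR and 1.56 (1.18 to 2.06) in WT, so the size of the difference with age depends on the denominator. CCR2-DTR stood above WT at 1 month by a ratio of 1.75 (0.871 to 3.67) and at 6 months by 1.68 (0.404 to 9.84), and counting error alone spans equality in both. When every barcode was thinned to 2000 UMIs the shares were 9.09%, 16.3%, 2.63% and 4.20%, from 11, 20, 2 and 5 cells, and the age ratio in CCR2-DTR was 0.258 (0.0758 to 0.710) over macrophages and 0.533 (0.156 to 1.46) over barcodes.

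All stromal-type macrophages together made up 0.429% (0.305 to 0.585), 0.718% (0.554 to 0.916), 1.18% (0.861 to 1.58) and 1.25% (0.945 to 1.63) of filtered barcodes. As a share of macrophages they were 28.7% (39 of 136, 21.3 to 37.1), 48.1% (64 of 133, 39.4 to 56.9), 50.6% (44 of 87, 39.6 to 61.5) and 39.9% (55 of 138, 31.6 to 48.5). WT at 1 month was the lowest of the 4 by either denominator. The genotype ratio of the share of barcodes was 1.68 (1.11 to 2.56) at 1 month and 1.06 (0.699 to 1.61) at 6 months. The age ratio was 2.76 (1.75 to 4.36) in WT and 1.74 (1.19 to 2.54) in CCR2-DTR. Over macrophages the genotype ratio was 1.68 (1.11 to 2.57) at 1 month and 0.788 (0.521 to 1.20) at 6 months, and the age ratio was 1.76 (1.12 to 2.79) in WT and 0.828 (0.567 to 1.21) in CCR2-DTR. Barcodes with 2 markers of another class were left out in an alternative. The age ratio over barcodes was then 2.78 (1.66 to 4.66) in WT and 1.52 (0.996 to 2.30) in CCR2-DTR, where the interval includes 1.

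Equal depth changed the age ratios, in a way that depends on the denominator. With every barcode thinned to 2000 UMIs before the gene rules were applied, 19, 34, 8 and 15 members were found, or 15.7%, 27.6%, 10.5% and 12.6% of macrophages. The age ratio of the share of barcodes was then 1.16 (0.439 to 2.77) in WT and 0.941 (0.476 to 1.78) in CCR2-DTR, so neither interval excludes equality. Over macrophages the thinned age ratio was 0.670 (0.254 to 1.60) in WT and 0.456 (0.231 to 0.860) in CCR2-DTR, and the second interval lies below 1. Leaving Stab1 out of the rule, an alternative chosen after seeing the data, gave 19, 35, 10 and 20 members and age ratios of 1.29 (0.535 to 2.91) and 1.16 (0.634 to 2.06) over barcodes, and of 0.823 (0.342 to 1.86) and 0.551 (0.301 to 0.981) over macrophages. The genotype ratio at 1 month was 1.89 (1.05 to 3.50) over barcodes and 1.76 (0.976 to 3.27) over macrophages when thinned, and 1.88 over either without Stab1 (1.05 to 3.48 over barcodes). It was 1.26 (0.914 to 1.74) when 1 stromal UMI sufficed and 1.48 (0.918 to 2.42) when 3 were asked for.

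**Figure D2:**
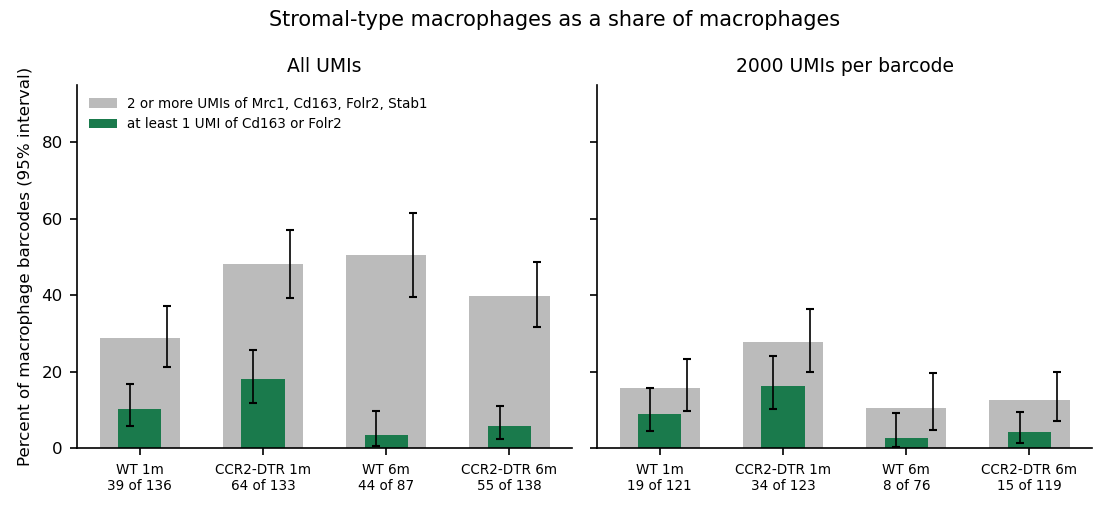
Grey bars give stromal-type macrophages, and the narrower green bars macrophages with a UMI of Cd163 or Folr2, as a percentage of the macrophages of each library with 95% Clopper-Pearson intervals; the left panel uses all UMIs, the right panel barcodes thinned to 2000 UMIs, and members of macrophages are counted under each bar. At full depth the grey bars run from 28.7% to 50.6%, and at equal depth from 10.5% to 27.6% with both 1-month libraries above both 6-month libraries.

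Taken as a whole, stromal-type macrophages differed from other macrophages of the same libraries in genes outside the rule, above all in genes of resident macrophages. Their levels are averages over a mixed group. Most member UMIs of Lyve1, F13a1 and Pf4 lay in the 49 cells with Cd163 or Folr2. Fcrls was divided, with 39, 63, 15 and 43 UMIs in those cells and 42, 42, 27 and 16 in the remaining members. This comparison could be tested, since each of the 4 libraries holds both classes. Counts were summed per library and class and compared with edgeR's quasi-likelihood test, with the library as a block, over 5386 genes. At a Benjamini-Hochberg adjusted p under 0.05, 25 genes (0.464%) were higher in stromal-type macrophages and 0 (0%) lower, and all 25 were higher in each of the 4 libraries. At an unadjusted p under 0.05 edgeR had 270 genes higher and 189 lower, and DESeq2 called 22 higher and 1 lower. Without the library of CCR2-DTR at 1 month edgeR called 16 higher, 14 of them among the 25. The absence of lower genes did not hold at equal depth. With macrophages thinned to 2000 UMIs before the stromal rule, edgeR called 69 higher and 71 lower of 1406 genes tested.

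Lyve1, the receptor for hyaluronan, was furthest apart. Its level was 230, 317, 31.2 and 60.8 CPM in members, while other macrophages held 1 UMI of it in all, in CCR2-DTR at 6 months (log2 fold 7.54, edgeR adjusted p = 4.48e-05). F13a1 was at 267, 440, 98.3 and 155 CPM in members against 4.06, 15.9, 34.6 and 6.08 CPM (log2 fold 4.12, edgeR adjusted p = 0.00162). For both genes every library's members lay above every library's other macrophages, and members of the 1-month libraries had the higher levels.

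Secreted factors formed a part of the rest. Pf4, a CXC chemokine first known from platelets, stood at 582, 802, 139 and 214 CPM in members against 40.6, 36.3, 0 and 30.4 CPM (log2 fold 3.76, edgeR adjusted p = 0.000539). Gas6, the bridge between phosphatidylserine on dying cells and the phagocytic receptors Mertk and Axl, stood at 122, 132, 28.8 and 57.1 CPM against 8.12, 11.3, 7.70 and 3.04 CPM (log2 fold 3.49, edgeR adjusted p = 0.000558). The growth factor gene Igf1 was at 135, 97.5, 26.4 and 99.5 CPM against 34.5, 36.3, 0 and 13.7 CPM (log2 fold 2.03, edgeR adjusted p = 0.0124). Igf1 had a UMI in 48.7%, 31.3%, 9.09% and 12.7% of members, against 10.7%, 11.8%, 10.6% and 12.2% of endothelial-type barcodes. At 6 months the share of members with an Igf1 UMI was thus near that of the vessel barcodes, and only at 1 month clearly above it. Igfbp4, a binding protein of insulin-like growth factors, had a log2 fold of 2.64 (edgeR adjusted p = 0.000681), Cfp, which encodes the complement activator properdin, 2.23 (0.00727), and Pltp, a phospholipid transfer protein, 3.01 (0.000558).

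The surface proteins Clec4a1, a C-type lectin receptor, Vcam1, an adhesion molecule, and Fcrls, an Fc receptor-like protein, were also higher in members, with log2 folds of 3.12, 2.11 and 2.11 (edgeR adjusted p = 0.0168, 0.00320 and 0.000558). Vcam1 did not follow Cd163 and Folr2: in CCR2-DTR at 6 months 116 of its 126 UMIs were in the members without either gene, and in both WT libraries all of them were, while in CCR2-DTR at 1 month 16 of 18 were in the members with one. Lgals1, which encodes galectin 1, had a log2 fold of 2.04 (edgeR adjusted p = 0.0119). The other 13 genes past the threshold had log2 folds between 0.99 (Klf4) and 2.00 (Ahnak), among them the chemokine genes Ccl6 and Ccl9 and Maf, a transcription factor of resident macrophages.

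**Figure D3:**
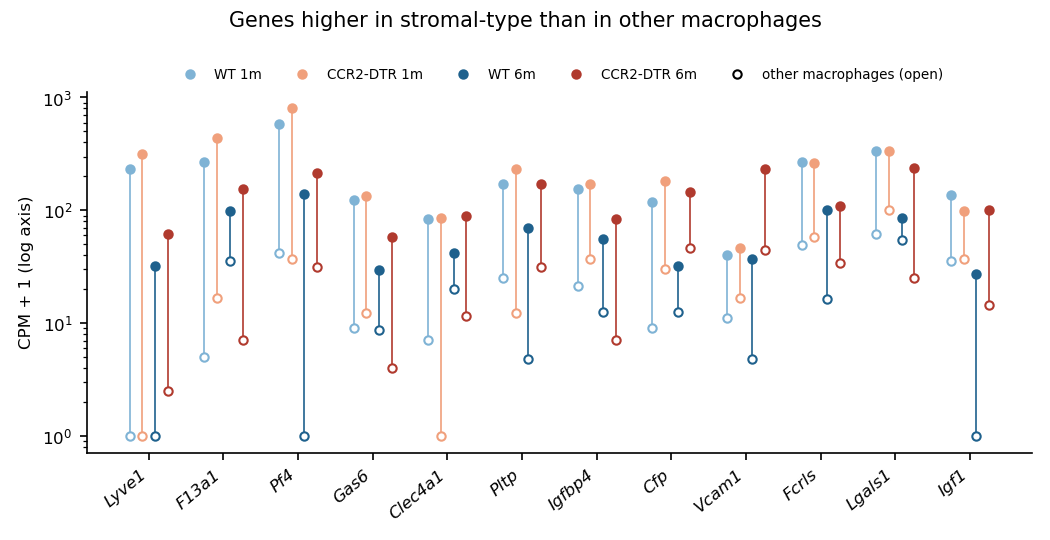
Filled points give the level of each gene in stromal-type macrophages and open points that in other macrophages of the same library (CPM plus 1, log axis), joined by a line, with 1 colour per library. All 12 genes are higher in stromal-type macrophages in each of the 4 libraries, with Lyve1 at 0 CPM in other macrophages of 3 of them.

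By list, 10 of the 15 tested genes of resident and perivascular macrophages (30 listed) rose in members, and the list's median log2 fold was 1.82 beside -0.01 for all genes tested. They were Lyve1, F13a1, Pf4, Gas6, Fcrls, Igf1, Wwp1, Maf, Mgl2 and Dab2. The lists were chosen with earlier results of these data known, so counts by list are a description. Selenop, a selenium transport protein of the same list, was higher in 4 of 4 libraries with an edgeR adjusted p of 0.0518. In the chemokine list 3 of 9 tested genes rose (Pf4, Ccl6 and Ccl9). None of 8 MHC class II genes passed the test (median log2 fold -0.52), nor did any of 9 intra-islet macrophage genes (-0.39) or of 8 monocyte-derived genes (-0.22). H2-Aa was at 4347, 5489, 15581 and 12183 CPM in members against 8790, 7863, 15336 and 13731 CPM (log2 fold -0.49, edgeR adjusted p = 0.369), so the classes were apart at 1 month and close at 6 months.

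The contrast was wider without Stab1 in the rule. With members chosen by Mrc1, Cd163 and Folr2 alone, again after seeing the data, edgeR called 123 of 5195 genes higher (2.37%) and 67 lower (1.29%), and 24 of the 25 genes above were among its calls. Of the resident and perivascular list 18 of 21 tested genes rose (median log2 fold 3.15). They included Cbr2 (log2 fold 6.54), the eosinophil chemokine Ccl24 (7.98), the lectin receptor Cd209f (8.11) and the ficolin Fcna (4.97). In the other direction 4 of 7 MHC class II genes fell: H2-Aa (-1.11), H2-Ab1 (-1.15), H2-Eb1 (-1.20) and the invariant chain Cd74 (-1.21). So did 4 of 9 intra-islet genes: Itgax (-1.15), the B-cell and macrophage surface protein Cd72 (-1.46), the chemokine Cxcl16 (-0.95) and the elastase Mmp12 (-2.03). Lyz2, lysozyme, of the same list rose (1.86). Among chemokines, Ccl3 (-1.48) and Ccl4 (-2.54) fell, while Ccl2 (2.44) and Ccl8 (4.33) rose.

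The comparison of genotypes asks whether stromal-type macrophages of CCR2-DTR mice, given the toxin as newborns like WT, carried other RNA later. The loss of CCR2+ cells itself was not measured here. At 1 month, 34 of 2016 genes with at least 50 UMIs over both libraries (1.69%) were at least 2-fold higher in CCR2-DTR members and 16 (0.794%) at least 2-fold lower. At 6 months 72 of 2653 (2.71%) were at least 2-fold higher and 23 (0.867%) lower. The median gene differed by 0.03 and 0.04 on the log2 scale. Ratios below are of CPM, with intervals on the log2 scale.

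Ccr2, the receptor whose promoter drives the transgene, was higher in CCR2-DTR members at 1 month. Its level was 62.5, 257, 192 and 258 CPM, from 19, 103, 80 and 140 UMIs in 4, 20, 22 and 26 members, so that WT at 1 month stood below the other three libraries. The log2 ratio between genotypes was 2.04 (1.33 to 2.83) at 1 month and 0.43 (0.02 to 0.84) at 6 months. At 1 month the Ccr2 UMIs of CCR2-DTR lay in members without Cd163 and Folr2 (100 of 103 UMIs, 334 CPM against 45.3 CPM in WT), and other macrophages showed a like difference (256 against 73.1 CPM). Ccr2 RNA was also raised outside macrophages: it was at 3.11 and 4.06 CPM in other barcodes of the CCR2-DTR libraries against 0.408 and 1.06 CPM in WT, and in 1.29% and 1.60% of endothelial-type barcodes against 0 of 664 and 322. Its part in the result was not tested, and RNA of the transgene itself was not analysed here.

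Several genes were above WT at both ages. They included Lyz2 (log2 ratio 0.44 and 0.85), Vim, an intermediate filament protein (0.59 and 1.18), Ahnak (0.83 and 1.11), Ccl9 (0.58 and 1.05) and the endocytic receptor Lrp1 (1.21 and 0.81). Mmp12 was lower at both ages (-0.81 and -1.15). Lilra5 had log2 ratios of -0.88 at both ages, but 0.54 at 1 month without Stab1 in the rule. Olfml3 had -1.86 and -0.49, the second turning to 0.092 when members were thinned to 2000 UMIs.

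At 1 month Retnla, a secreted protein of alternatively activated macrophages, was at 720 CPM in CCR2-DTR and 201 CPM in WT (log2 ratio 1.84), from 6 and 3 members, 177 of the 288 UMIs in CCR2-DTR being in 1 cell. The log2 ratio turned to -1.04 when 3 stromal UMIs were asked for. Spp1, osteopontin, had 84 and 11 UMIs (2.54), of which 70 were in 1 cell; without the top cell of each library the log2 ratio was 0.60. Spread over more cells were Tsc22d3, a glucocorticoid-induced gene (277 against 102 CPM in 46 and 21 members, 1.44), the kinase gene Stk17b (1.49) and the adaptor gene Dok2 (1.64). Fn1, fibronectin, was at 187 against 72.4 CPM (1.37), with 46 of 75 and 16 of 22 UMIs in 1 cell, and its log2 ratio turned to -2.94 with 3 stromal UMIs. Lower in CCR2-DTR were Olfml3, an extracellular matrix protein (52.5 against 191 CPM, -1.86), Gsn, gelsolin (-1.53), Zmynd15 (-1.49), the metallothionein Mt1 (-1.26) and the adhesion molecule Cadm1 (-1.12). The lysosomal protease gene Ctsd stood at 1142 against 2014 CPM (-0.82), but 309 of the 612 WT UMIs were in 1 cell and the log2 ratio without top cells was -0.15.

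Of the list of resident and perivascular genes, 17 of 30 had enough UMIs at 1 month, and 1 of these, Retnla, was at least 2-fold higher in CCR2-DTR and none lower (median log2 ratio 0.46 beside 0.03 for all genes). Among all genes compared, 1.69% were at least 2-fold higher and 0.794% lower. No MHC class II gene of 6 passed 2-fold. The 3 digestive enzyme genes of the acinar list with enough UMIs, Clps, Ctrb1 and Pnlip, were all at least 2-fold higher in CCR2-DTR members (log2 ratios 2.01, 1.99 and 2.28). The acinar list summed to 224, 945, 151 and 481 CPM in members of the 4 libraries, and to 379, 248, 576 and 352 CPM in barcodes that are not macrophages. In other macrophages it summed to 23929, 340, 92.4 and 796 CPM, so at 1 month CCR2-DTR stood below WT there.

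Most of the measured chemokine genes were higher in CCR2-DTR members at 6 months. Of 18 listed, 11 had enough UMIs and 8 were at least 2-fold higher in CCR2-DTR and none lower, beside 2.71% of all genes. These 8 are among the 72 genes at least 2-fold higher. Ccl3 was at 199 against 83.9 CPM (log2 ratio 1.25), Ccl12, a ligand of CCR2, at 95.8 against 31.2 CPM (1.62), the neutrophil attractant Cxcl2 at 151 against 67.2 CPM (1.17), and Ccl9 at 199 against 95.9 CPM (1.05, or 0.96 without the top cell of each library). Ccl4 was at 553 against 245 CPM (1.18, or 0.75 without top cells). Ccl5 was at 157 against 69.6 CPM (1.17), from 5 and 4 members, with 59 of 85 UMIs in 1 cell of CCR2-DTR. The other two, Ccl8 and Cxcl9, had most of their UMIs in 1 cell and are given below. For Ccl3, Ccl12 and Cxcl2 the difference was as large when the top cell of each library was left out. Other macrophages of the same libraries showed the same direction for Ccl3 (190 against 115 CPM), Ccl12 (109 against 53.9 CPM) and Ccl4 (561 against 308 CPM). Of the immediate early and dissociation list 13 of 16 measured genes also lay above the median gene, 2 of them at least 2-fold higher. Of the inflammatory and NF-kB list, which shares Ccl3, Ccl4 and Cxcl2, 6 of 9 did, with 4 at least 2-fold higher and 1 lower. From 1 to 6 months 16 of 16 measured genes of the dissociation list lay above the median gene in CCR2-DTR, and 6 of 13 in WT. The part of dissociation in the chemokine values was not tested.

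Several of the largest ratios at 6 months came from genes with most UMIs in 1 cell. Mgp, a matrix protein of mesenchymal and endothelial cells, had 296 UMIs in CCR2-DTR members against 0 in those of WT (at least 75.8-fold higher), with 218 in 1 cell, and without the top cell a log2 ratio of 4.32 remained against the floor of 3 counts. Cxcl9, an interferon-induced chemokine gene, had 102 UMIs against 0, 84 of them in 1 cell, and 2.20 remained. Bgn, biglycan, had 110 and 0 (at least 28.2-fold), 104 of them in 1 cell, and 0.62 remained. All 65 UMIs of the interferon-induced gene Ubd were in 1 cell. Mesenchymal markers moved with these: 1 member of CCR2-DTR at 6 months held 594 of the 602 UMIs of that list, which summed to 378, 10.0, 7.20 and 1109 CPM over members. Beyond leaving out top cells, the part of that cell in the result was not tested.

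Ccl8 had 214 against 5 UMIs (log2 ratio 5.04), 161 in 1 cell, and 3.76 remained without top cells. The lipid-binding protein Fabp5 (119 against 3 UMIs), the phospholipase Pla2g2d (92 against 3) and complement C3 (80 against 3) were found in 7, 3 and 8 members of CCR2-DTR, with log2 ratios of 4.93 (3.35 to 7.23), 4.56 (2.97 to 6.86) and 4.36 (2.76 to 6.66). In CCR2-DTR 1 cell held 68, 47 and 57 of these UMIs. Without top cells the log2 ratios were 3.71, 3.53 and 2.56 against a floor of 3 counts in WT. Spread over more cells were Ninj1, a membrane protein of the resident list (171 against 52.8 CPM in 25 and 14 members, 1.70), and Cfp (146 against 31.2 CPM in 13 and 5 members, 2.22). Igf1 was at 99.5 against 26.4 CPM (1.92), in 7 and 4 members.

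Lower in CCR2-DTR members at 6 months were Cx3cr1, the fractalkine receptor (298 against 609 CPM in 40 and 41 members, log2 ratio -1.03), Otulinl (-1.13), the TGF-beta family gene Gdf3 (-1.56) and the cytokine gene Il1b (166 against 333 CPM, -1.01). Igfbp3 and Hist1h2ap had 82 and 50 of the WT UMIs in 1 cell each. Of the MHC class II genes 0 of 7 were 2-fold apart (median log2 ratio -0.35).

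**Figure D4:**
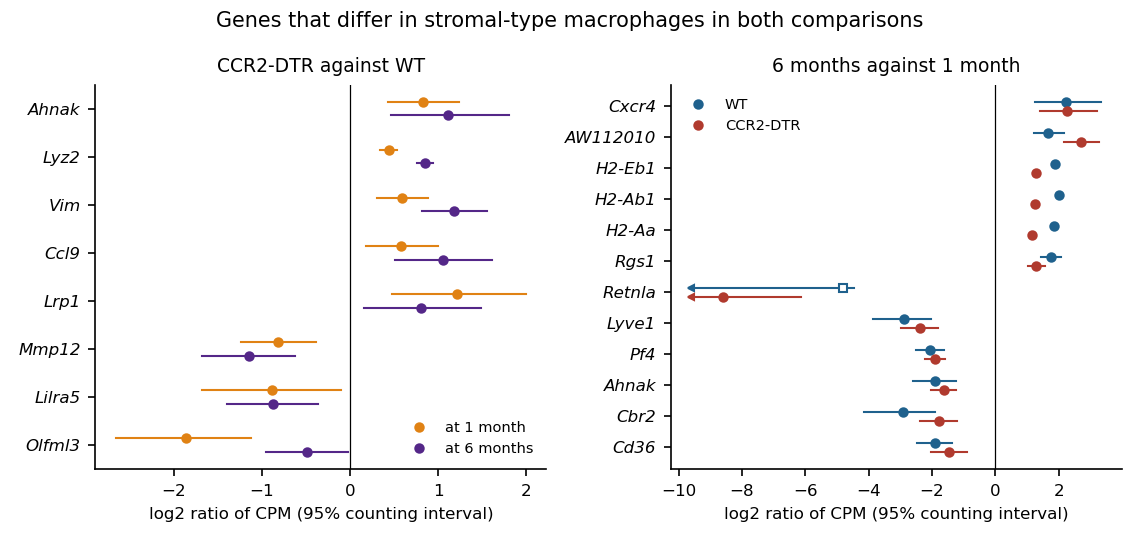
Points give the log2 ratio of CPM in stromal-type macrophages and lines its 95% counting interval, for CCR2-DTR against WT at 1 and 6 months (left) and for 6 months against 1 month in WT and CCR2-DTR (right); the open square is a bound against a count of 0, and arrows mark intervals that run past the axis. Among genotype ratios Lrp1 (1.21 and 0.81) and Ahnak (0.83 and 1.11) are positive and Mmp12 (-0.81 and -1.15) negative at both ages, and on the age side the 3 MHC class II genes are positive and Lyve1, Pf4 and Cbr2 negative in both genotypes.

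With age, stromal-type macrophages of both genotypes had more MHC class II RNA and less RNA of resident macrophage genes. From 1 to 6 months 94 of 1973 genes (4.76%) were at least 2-fold higher and 112 (5.68%) lower in WT members, and in CCR2-DTR 107 of 2762 (3.87%) were higher and 109 (3.95%) lower. The genotype and age comparisons share libraries, so each has its own values and no overlap between them is given. Beside each of these, the share of members with a UMI of Cd163 or Folr2 was 35.9%, 37.5%, 6.82% and 14.5%. Stab1 was the only stromal gene in 13 of 39, 20 of 64, 21 of 44 and 24 of 55 members. The rule asks for a fixed 2 UMIs while the 6-month libraries were deeper per cell, so members of the 2 ages were not chosen at equal depth. The part of this make-up in the age differences was not tested.

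Of 9 MHC class II genes, 7 had enough UMIs, and 7 of 7 in WT and 4 of 7 in CCR2-DTR were at least 2-fold higher at 6 months. Among all genes compared, 4.76% and 3.87% were. H2-Aa stood at 4347 and 15581 CPM in WT (log2 ratio 1.84, 1.76 to 1.93) and at 5489 and 12183 CPM in CCR2-DTR (1.15, 1.08 to 1.22). H2-Ab1 had log2 ratios of 2.00 and 1.26, H2-Eb1 of 1.88 and 1.27, Cd74 of 1.48 and 0.98, and Ciita, the master regulator of these genes, of 2.44 and 1.39. The difference was also present on each side of the division by Cd163 and Folr2: H2-Aa was at 1329 and 3008 CPM in WT members with either gene and at 5103 and 16790 CPM in those without, and at 1932 and 3642 CPM, and 6680 and 13895 CPM, in CCR2-DTR. The WT value of 3008 CPM comes mostly from 1 cell. Other macrophages differed with age in the same direction (8790 and 15336 CPM in WT, 7863 and 13731 CPM in CCR2-DTR).

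Resident and perivascular genes were lower at 6 months. In WT 14 of 30 had enough UMIs, 8 were at least 2-fold lower and none higher, and all 14 lay below the median gene. In CCR2-DTR 19 did, with 11 lower and 3 higher. Among all genes compared, 5.68% in WT and 3.95% in CCR2-DTR were at least 2-fold lower, and 4.76% and 3.87% higher. Lyve1 had log2 ratios of -2.88 (-3.86 to -2.02) in WT and -2.38 (-2.98 to -1.82) in CCR2-DTR, Pf4 of -2.07 and -1.91, Cbr2 of -2.93 and -1.79, F13a1 of -1.44 and -1.51, and Fcrls of -1.40 and -1.27. Retnla had 61 UMIs at 1 month and 0 at 6 months in WT (at least 27.9-fold lower) and 288 and 1 in CCR2-DTR (log2 ratio -8.61, -13.92 to -6.12). The 288 UMIs lay in 6 members, 177 of them in 1, and the log2 ratio was -5.65 without top cells, against a floor of 3 counts at 6 months. Other macrophages of CCR2-DTR held Retnla at 116 CPM at 1 month and 153 CPM at 6 months, the opposite direction. Within members with Cd163 or Folr2, 3 and 8 cells at 6 months, Lyve1 was at 1149 and 355 CPM in WT and at 1255 and 364 CPM in CCR2-DTR, and Pf4 at 2708 and 1449, and 2958 and 1137 CPM. In WT most UMIs behind the 6-month values belong to 1 of the 3 cells.

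Igf1 had different values in the genotypes: 135 and 26.4 CPM in WT (log2 ratio -2.35, -3.46 to -1.37) and 97.5 and 99.5 CPM in CCR2-DTR (0.03, -0.59 to 0.66). The 3 genes of the list that were higher at 6 months in CCR2-DTR were Ccl8, Pla2g2d and Timd4, the phosphatidylserine receptor TIM-4. Timd4 had 41 UMIs in 3 members, 36 of them in 1 cell.

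Outside these lists, Cxcr4, the receptor for CXCL12, was higher at 6 months in both genotypes (log2 ratios 2.22 and 2.25), in 28 and 37 members against 6 and 10. So were the non-coding RNA AW112010 (1.67 and 2.70), the G-protein regulator Rgs1 (1.75 and 1.29) and Il1b (2.76 and 1.66). Of the intra-islet list 9 genes had enough UMIs, of which 2 in WT and 4 in CCR2-DTR were at least 2-fold higher at 6 months and 0 and 1 lower. Among all genes compared, 4.76% and 3.87% were higher and 5.68% and 3.95% lower. Itgax had log2 ratios of 0.93 and 1.16 and Cd83 of 1.06 and 1.28. Mmp12 went the other way, from 369 to 204 CPM in WT (-0.85) and from 210 to 92.1 CPM in CCR2-DTR (-1.19). In WT Apoe, the lipid carrier apolipoprotein E, was at 9309 and 27737 CPM (1.58). Lower in both genotypes were Ahnak (-1.91 and -1.63) and the fatty acid receptor Cd36 (-1.90 and -1.46).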

How the data were processed

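Single-cell RNA of whole islets was measured on the 10x Chromium platform in 4 libraries. Raw UMI counts of each gene in each barcode were deposited, made by the authors with Cell Ranger 5.0.1 on mm10, per the submitters' processing notes; the deposited barcode and gene lists hold no measurement (unit: other). Not given in the sources used here are the annotation and the treatment of introns. Coordinates are from GENCODE vM21 on GRCm38. Free RNA was not subtracted and doublets were not removed.

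Members were chosen from the counts by the rule in the opening. CPM are the summed UMIs of a group of barcodes in a library, scaled by the total UMIs of that same group. The groups are members, members with or without Cd163 or Folr2, other macrophages, endothelial-type barcodes and other barcodes. The members and gene lists were chosen with earlier results of these data known. Shares have Clopper-Pearson 95% intervals, and ratios exact conditional Poisson intervals (scipy 1.17.1); genes with at least 50 UMIs over both libraries were compared, and called means at least 2-fold. Where a library had no UMI, the ratio is a bound against 3 counts in that library. For log2 ratios without top cells in the genotype and age paragraphs, a remaining count under 3 was set to 3. Endothelial-type barcodes are those with at least 3 of 7 endothelial markers that were not macrophages and passed the hormone limit.

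Stromal-type and other macrophages were compared with edgeR 4.0.16 (R 4.3.3, limma 3.58.1) on sums per library and class, with TMM, filterByExpr, the library as a block and Benjamini-Hochberg adjustment over all genes tested, the genes of the rule left out. The block pairs both classes of 1 library. DESeq2 1.42.0 was an alternative. In data simulated for this comparison 200 of 200 changed genes among 5223 were called, with 9 unchanged ones. The changed genes had at least 200 UMIs in the summed data and were raised or lowered by 2 log2 units, with no difference between libraries. The check does not show how often smaller differences, or differences in rarer genes, would be called. Scrublet (scanpy 1.11.5) gave doublet scores. The alternatives were another number of stromal or macrophage genes, hormone, mitochondrial and depth limits, thinning to 2000 UMIs, other floors and scalings, leaving out single libraries, top cells, doublet scores over 0.25 or barcodes with 2 markers of another class, and the rule without Stab1.

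Genes were named by rule: the 12 furthest apart past the edgeR threshold that pointed the same way in 4 libraries with at least 50 CPM, and for each pair of libraries the 8 highest and 8 lowest by the interval bound nearest 0, plus the 6 highest and 6 lowest in both genotype or both age comparisons. Members of lists were named where they describe the list. Left out were genes whose CPM over other barcodes came near the members' (more than 0.5 of it, by the higher library of each), markers of other classes, and ribosomal, mitochondrial and predicted genes. A few genes that met these rules are not reported here.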

Additional observations from a re-analysis of the deposited data

Results flagged for a closer look

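In 11 cases a gene's difference pointed one way in one comparison and the opposite way in its counterpart, with both counting intervals off 0. The opposition itself was not tested, since each group is 1 library. In the genotype comparison at 1 month and then 6 months, the log2 ratio of CCR2-DTR to WT was -0.82 and 1.76 for Ctsd, -0.73 and 4.93 for Fabp5, and -1.26 and 0.65 for Mt1. It was 0.11 and -0.41 for Apoe, 0.34 and -0.35 for H2-Aa, 0.25 and -0.49 for H2-Ab1, and 0.30 and -0.31 for H2-Eb1. For Ctsd the 2 ratios were -0.15 and 0.81 without the top cell of each library.

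In the age comparison in WT and then CCR2-DTR, the log2 ratio of 6 months to 1 month was -1.89 and 0.69 for Ctsd, -0.57 and 1.24 for Gsn, -0.73 and 1.18 for Mt1, and -0.71 and 0.79 for Zmynd15. Without top cells Ctsd stood at -1.11 and -0.15, so its opposition was not seen there, while Mt1 (-0.47 and 0.78), Gsn (-0.17 and 1.13) and Zmynd15 (-0.46 and 0.87) kept their signs.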

How the results depend on the processing

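No test between genotypes or ages was possible with 1 library per group. No paired analysis was possible for them because the groups share only 1 replicate number; for members against other macrophages the library block pairs the classes, and with no library block 13 genes were higher, all 13 among the 25.

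Depth and Stab1 set the share of barcodes most, in the library order of the report. It was 0.216%, 0.407%, 0.25% and 0.383% at 2000 UMIs, 0.209%, 0.393%, 0.269% and 0.455% without Stab1, 0.802%, 1.01% and 1.96% with 1 stromal UMI (all but WT at 6 months) and 0.505%, 0.645% and 0.683% with 3 (all but WT at 1 month). Without Stab1 the ratio was 1.69 for genotype at 6 months, 1.29 for age in WT and 1.16 for age in CCR2-DTR. At 2000 UMIs it was 1.16 for age in WT and turned to 0.941 in CCR2-DTR, and the age ratio of the share of macrophages in WT turned to 0.823 without Stab1 and 0.670 when thinned.

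Counts of genes at least 2-fold apart followed the UMI floor. Higher and lower genes with no floor were 1892 and 2157 (genotype at 1 month), 2049 and 1990 (at 6 months), 1919 and 3335 (age in WT), and 1802 and 2954 (age in CCR2-DTR). With a floor of 100 UMIs they were 6 and 5, 28 and 10, 39 and 45, and 44 and 43, and with members thinned 5 and 7, 9 and 5, 14 and 22, and 25 and 36. At 1 month 19 were higher with 3 stromal UMIs and 56 without top cells, and 31 lower with cells weighted equally. For age in WT, 57 were higher without barcodes with markers of another class, 47 were higher and 71 lower with 3 stromal UMIs, and 26 and 41 without Stab1. For age in CCR2-DTR, 52 were lower with 3 stromal UMIs, and 62 higher and 49 lower without Stab1.

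Between the classes edgeR called 108 higher and 56 lower with no filter on low counts, 69 and 71 when thinned (1406 genes tested), and 123 and 67 without Stab1. Leaving out 1 library gave 16 to 35 higher and 0 to 4 lower, with 16 when CCR2-DTR at 1 month was left out. Lower genes numbered 3 without doublet scores over 0.25, 2 without macrophages of 1 stromal UMI, and 1 by DESeq2.

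Signs that turned were, with 3 stromal UMIs, Retnla (-1.04) and Fn1 (-2.94) for genotype at 1 month and Fn1 (1.11) for age in CCR2-DTR; Hist1h2ap at 6 months (1.66 without barcodes with other markers, 0.62 without top cells); Rgs5 for age in WT (0.48 without those barcodes); Lilra5 at 1 month (0.54 without Stab1); and Olfml3 at 6 months (0.092 thinned). The cause was not tested. Of the values that answer a comparison, 167 stayed the same, 66 moved and 1 turned. Outside these, mostly for single genes, 961 stayed the same, 170 moved, 43 lost their call and 10 turned. The same meant within the main interval for shares and ratios and within a set factor for counts of genes. For edgeR genes it meant the same sign and still called.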

Other observations

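Cell cycle genes were present in a part of the members. At least 3 genes of the proliferation list had a UMI in 12 of 39, 14 of 64, 13 of 44 and 21 of 55 members, and in 22 of 97, 26 of 69, 5 of 43 and 23 of 83 other macrophages. Mki67 had a UMI in 5, 3, 1 and 2 members. None of the 9 proliferation genes tested passed edgeR's threshold between the classes. These counts are not adjusted for depth, which was higher at 6 months.

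Some RNA was confined to few members. Cd209f and Ccl24 had no UMI in any library's members without Cd163 and Folr2 or in other macrophages, against 7, 20, 13 and 12, and 14, 22, 4 and 11 UMIs in members with either gene. Lyz2 was at 10503, 10060, 4785 and 12836 CPM in members with Cd163 or Folr2 and at 2996, 4785, 3402 and 5043 CPM in those without. Ccr3, another chemokine receptor gene, had 0, 2, 0 and 10 UMIs in members, and was at 4.84 and 5.15 CPM in barcodes that are not macrophages of CCR2-DTR at 1 and 6 months against 0.00850 and 0.0353 CPM in WT.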
